A study of Mus musculus with 8 samples.

Results

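The genes described here are Npnt, which encodes the matrix protein nephronectin, its paralog Egfl6, Itga8, which encodes the integrin alpha 8 chain, and the Fraser complex genes Fras1, Frem1 and Frem2. They are 6 of the 55335 genes in the table and were chosen by name as one ligand, receptor and matrix axis, with the difference between the scaffolds already known for some of them. RNA was sequenced from 8 libraries of MC3T3-E1, a pre-osteoblast cell line from mouse calvaria. In 4 libraries the cells had been cultured for 3 days with TABS, the Trio-Active bone scaffold, and in the other 4 for the same time with HA, hydroxyapatite doped with magnesium. No library came from cells without a scaffold, so each difference is TABS relative to HA. The labels do not say whether replicates were separate cultures, so errors and p-values reflect library-to-library spread alone, part or all of which may be technical.

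Nephronectin is a secreted protein with EGF-like repeats, an RGD integrin-binding motif and a carboxy-terminal MAM domain. It is a preferred ligand of the integrin made of the alpha 8 and beta 1 chains, and the pair is best known from the developing kidney, where it is needed for outgrowth of the ureteric bud. Nephronectin is also made by osteoblasts and has been studied in MC3T3-E1 cells as a factor that promotes their differentiation. The FRAS1, FREM1 and FREM2 proteins form a complex in the basement membrane under embryonic epithelia and help to hold nephronectin there, and loss of the complex causes Fraser syndrome.

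Of the 6 genes, only Npnt and Itga8 were expressed at a measurable level, and both were lower with TABS. Npnt stood at 11.3 ± 3.05 FPKM (fragments per kilobase, scaled to the fragments of the library) in HA and at 4.13 ± 0.651 in TABS (SD, n = 4). Itga8 stood at 3.31 ± 0.273 FPKM in HA and at 2.42 ± 0.183 in TABS (SD, n = 4). Egfl6, Fras1, Frem1 and Frem2 were at or near 0 in all 8 libraries. Transcripts of the ligand and of the receptor chain were thus present in these cells, while those of the Fraser complex were near or at 0.

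The promoter sequences of Npnt and Itga8 are shown because these are the members whose transcripts could be measured and were lower together. Each window is the 250 bases before the RefSeq start (GRCm38.p6), read 5′ to 3′ on the gene's strand. It lies at chr3:132950292-132950541, minus strand, for Npnt and at chr2:12301945-12302194, minus strand, for Itga8. Capitals mark GGGCGG on either strand, the core letters of Sp and Klf factor sites.
Npnt: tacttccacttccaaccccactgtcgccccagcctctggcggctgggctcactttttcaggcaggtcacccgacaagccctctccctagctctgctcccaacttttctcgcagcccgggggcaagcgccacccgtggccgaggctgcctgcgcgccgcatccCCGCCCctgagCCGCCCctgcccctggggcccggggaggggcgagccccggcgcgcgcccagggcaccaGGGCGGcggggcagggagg
Itga8: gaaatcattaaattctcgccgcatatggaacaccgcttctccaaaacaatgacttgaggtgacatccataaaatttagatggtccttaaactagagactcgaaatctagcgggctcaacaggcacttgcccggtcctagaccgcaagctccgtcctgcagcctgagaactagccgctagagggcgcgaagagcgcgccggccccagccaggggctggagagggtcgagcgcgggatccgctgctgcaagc
The Npnt window held GGGCGG at 3 places, beginning 88, 77 and 19 bases before the start, and had a GC content of 74.0%. The Itga8 window held none and had a GC content of 56.4%, against a median of 52.4% over 32851 such windows. GGGCGG was in 32.7% of all windows. The TATA box TATAAA (in 12.4% of windows), TGANTCA (AP-1, 6.75%), TGTGGT (Runx, 14.0%) and GGAATG (Tead, 12.6%) were searched on both strands and were in neither window. CANNTG, the E-box, was in 66.2% of windows, at 2 places in that of Itga8 and nowhere in that of Npnt. A match of letters is a description and no evidence of binding. RefSeq windows were found for 5 of the 6 members, all except Fras1, and RefSeq gives a second Npnt start. The window of that start held GGGCGG nowhere and CANNTG at 2 places, as the Itga8 window did, so the motif counts of Npnt depend on the start.

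Npnt (ENSMUSG00000040998) lies on chromosome 3 of GRCm38 from 132881745 to 132950291, minus strand, and is protein-coding, with 7 annotated transcripts. Its FPKM was 15.1, 10.2, 12.1 and 7.91 in HA 1 to 4, and 4.32, 3.62, 3.61 and 4.97 in TABS 1 to 4. The groups did not overlap, with the lowest HA library above the highest TABS library. The HA mean was 2.74 times the TABS mean. On the log2(FPKM + 1) scale, which understates changes of genes with low FPKM, the fold change (TABS minus HA) was -1.24 ± 0.17 (SE). This was the 4th lowest of the 11280 genes kept, those with at least 1 FPKM in at least 4 of the 8 libraries. Because Npnt was chosen with this difference known, no test of it is given.

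Npnt also varied more between replicates than most genes of its level. Its SD on the log2(FPKM + 1) scale was 0.36 in HA, at the 97.3rd percentile of the 4700 kept genes whose mean FPKM was within a factor of 2 of its own, and 0.18 in TABS, at the 90.8th percentile. The medians of those genes were 0.09 and 0.07. HA 1 was the highest and HA 4 the lowest HA library for Npnt. Without HA 1 the fold change was -1.10 and without HA 4 it was -1.38. Its direction could not turn in either case, because the groups did not overlap.

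Itga8 (ENSMUSG00000026768) lies on chromosome 2 from 12106632 to 12301922, minus strand, and is protein-coding, with 7 annotated transcripts. Its product pairs with the beta 1 chain at the cell surface and binds RGD-containing ligands, nephronectin among them. Its FPKM was 3.07, 3.22, 3.25 and 3.70 in HA 1 to 4, and 2.28, 2.34, 2.36 and 2.69 in TABS 1 to 4. All TABS libraries again lay below all HA libraries, by a margin much smaller than for Npnt. The HA mean was 1.37 times the TABS mean, and the log2 fold change was -0.33 ± 0.06 (SE). Unlike Npnt, Itga8 had a replicate spread at the middle of genes of its level (SD 0.09 on the log2 scale in HA and 0.08 in TABS, at the 46.8th and 46.3rd percentiles).

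In the fit across all genes, limma with Benjamini-Hochberg adjusted p under 0.05 called 833 of 11280 kept genes (7.38%), 506 higher (4.49%) and 327 lower (2.90%) in TABS. The split was 915 higher and 239 lower after rescaling to TPM and 487 higher and 452 lower after the GC and length correction. Every TABS library lay below every HA library in 7.15% of kept genes and above every HA library in 10.8%. The groups did not overlap in either direction in 18.0%. Both members that passed the filter, Npnt and Itga8, were called lower and did not overlap between groups, but this is the contrast they were chosen with, and nothing is read from these counts. In bulk RNA, fewer cells of a type and less RNA per cell cannot be told apart.

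**Figure D1:**
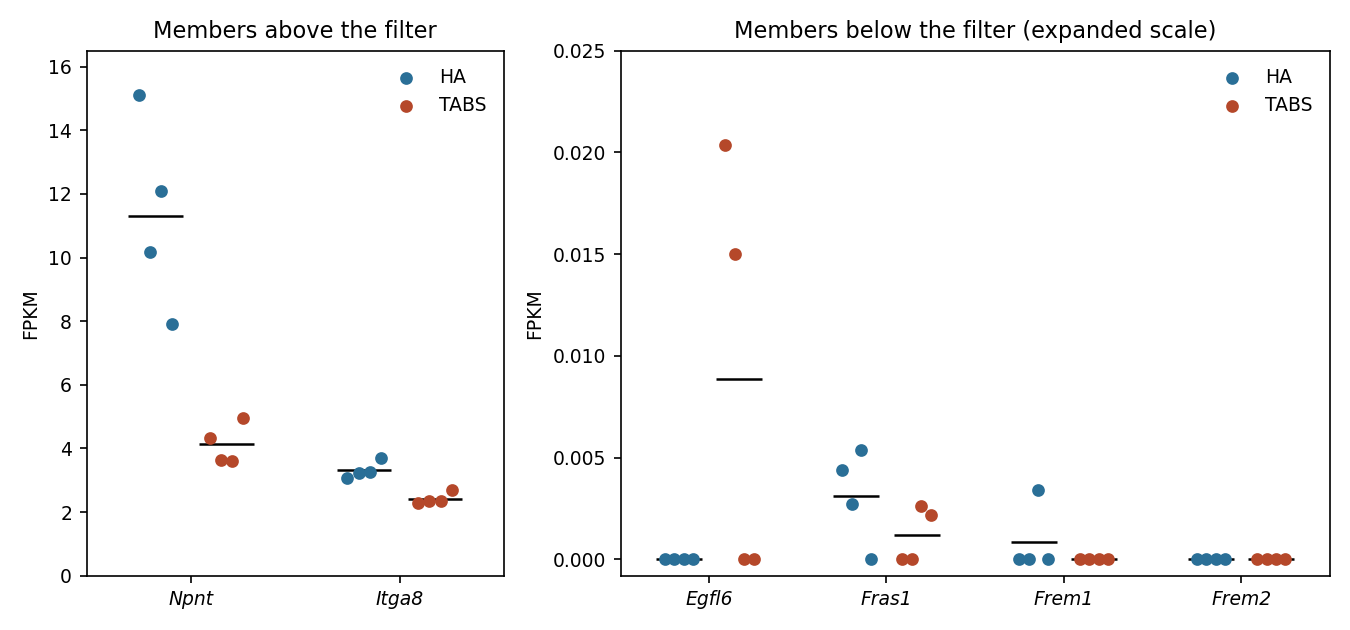
FPKM (vertical axis) of the 6 genes in each library, 1 point per library, blue for HA and red for TABS, with black bars for the mean of 4 libraries; the right panel has an expanded scale. Npnt runs from 7.91 to 15.1 in HA and 3.61 to 4.97 in TABS and Itga8 from 3.07 to 3.70 and 2.28 to 2.69, while no value in the right panel exceeds 0.0204.

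The remaining ligand, Egfl6 (ENSMUSG00000000402, chromosome X from 166523007 to 166585720, minus strand), encodes a secreted protein with the same layout of EGF-like repeats, RGD motif and MAM domain as nephronectin. It was listed at 0 in all 4 HA libraries and in TABS 3 and 4, at 0.0204 FPKM in TABS 1 and at 0.015 in TABS 2. Each library had a smallest step between low FPKM values, and if that step is 1 fragment, the Egfl6 values came to 2.0 fragments in all 8 libraries together. At this depth no difference between scaffolds could be measured for Egfl6.

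The Fraser complex genes were equally low. Fras1 (ENSMUSG00000034687, chromosome 5 from 96373955 to 96784728, plus strand), which encodes a very large membrane-anchored matrix protein, was above 0 in 3 HA and 2 TABS libraries and reached at most 0.00538 FPKM, in HA 3. Frem1 (ENSMUSG00000059049, chromosome 4 from 82897920 to 83052339, minus strand), a secreted relative, was above 0 only in HA 3, at 0.0034 FPKM. Frem2 (ENSMUSG00000037016, chromosome 3 from 53513938 to 53657355, minus strand), the second membrane-anchored member, was listed at 0 in every library. With the longest annotated transcript as length, the values would imply 6.2 fragments of Fras1, 0.7 of Frem1 and none of Frem2 over the 8 libraries. The same step would give 941 to 1755 fragments of Npnt per HA library and 363 to 570 per TABS library, and 395 to 554 and 244 to 388 of Itga8. These are approximate, since few low values were whole multiples of the step.

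Per unit of length, the order of levels was Npnt, then Itga8, then the other 4 genes, in both groups. The lowest Npnt library exceeded the highest Itga8 library within HA (7.91 and 3.70 FPKM) and within TABS (3.61 and 2.69). Egfl6, Fras1, Frem1 and Frem2 could not be ordered, because each was at 0 in several libraries. The ratio of Npnt to Itga8 FPKM was 4.93, 3.16, 3.71 and 2.14 in HA 1 to 4, and 1.89, 1.55, 1.53 and 1.85 in TABS 1 to 4. The ratio follows from the same values as both fold changes, and it was lower in every TABS library than in any HA library.

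The partner chain of Itga8 was abundant on both scaffolds. Itgb1, the beta 1 integrin gene, stood at 178 ± 12.5 FPKM in HA and 171 ± 1.7 in TABS (SD, n = 4), a log2 fold change of -0.05 ± 0.05 (SE) that did not pass the test (limma adjusted p = 0.593). Itgb1 exceeded Itga8 from 52.1 to 55.4 times in HA and from 62.8 to 75.6 times in TABS.

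Of 8 other chains in the list of RGD-binding integrins, Itgb1 among them, 5 passed the filter. In TABS 2 of these rose, none fell and 3 missed the threshold, with a median log2 fold change of 0.20 against 0.01 over all kept genes. Itgb5, a partner of the alpha v chain, stood at 142, 146, 143 and 140.4 FPKM in HA 1 to 4 and at 189.6, 182, 182 and 183 in TABS 1 to 4. It rose without overlap (0.36 ± 0.04 SE, limma adjusted p = 0.000893), and the call held in all 19 alternatives. Itga5, the fibronectin receptor chain, rose from 51.2 ± 2.56 to 59.0 ± 1.56 FPKM (0.20 ± 0.05, limma adjusted p = 0.0328). Leaving out any single library except HA 1 ended that call (limma adjusted p up to 0.091), as did keeping all low genes (0.0588) or blocking on replicate number (0.0874). Itgav, the alpha v chain itself, stood at 12.3, 5.49, 5.14 and 11.3 FPKM in TABS 1 to 4 and at 4.62, 4.80, 4.58 and 12.6 in HA 1 to 4. TABS 1, TABS 4 and HA 4 thus stood far above the other 5 libraries, and no difference between scaffolds could be read from Itgav (limma adjusted p = 0.587). Itgb3, which also pairs with alpha v, did not pass (4.13 ± 0.395 and 3.74 ± 0.140 FPKM in TABS and HA, limma adjusted p = 0.29).

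Other RGD-bearing matrix proteins that such integrins can bind moved in both directions. Of 11 in the list, 10 passed the filter, with 3 called higher, 2 called lower and 5 not called, and a median log2 fold change of 0.14. Ibsp, bone sialoprotein, fell from between 46.8 and 55.2 FPKM in HA to between 12.8 and 16.0 in TABS (-1.73 ± 0.07 SE, limma adjusted p = 1.51e-05). Tnc, tenascin C, a ligand of the alpha 8 beta 1 integrin as well, fell from 8.71, 9.19, 7.20 and 7.47 FPKM in HA 1 to 4 to 4.69, 5.23, 5.12 and 5.70 in TABS 1 to 4 (-0.56 ± 0.08, limma adjusted p = 0.00448). The fall of Tnc left no overlap between the groups. Dmp1, a phosphoprotein of mineralising matrix, rose (0.82 ± 0.09, limma adjusted p = 0.000999), as did Tgfbi, a secreted adhesion protein (from 2.83 ± 0.520 to 4.62 ± 0.285 FPKM, 0.56 ± 0.09, limma adjusted p = 0.00856). Spp1, osteopontin, rose too (0.45 ± 0.09, limma adjusted p = 0.0207). Fn1, the gene of fibronectin, also a ligand of alpha 8 beta 1, did not pass (1269 ± 3.82 FPKM in TABS and 1115 ± 92.0 in HA, 0.19 ± 0.06, limma adjusted p = 0.109). Mfge8 (0.36, limma adjusted p = 0.077) and Thbs1 (0.08, limma adjusted p = 0.367) did not pass either. The call on Spp1 was lost without TABS 1, TABS 2 or HA 2 (limma adjusted p up to 0.0633), with no filter (0.164) and with the block (0.103), and that on Tgfbi with the block (0.0535).

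**Figure D2:**
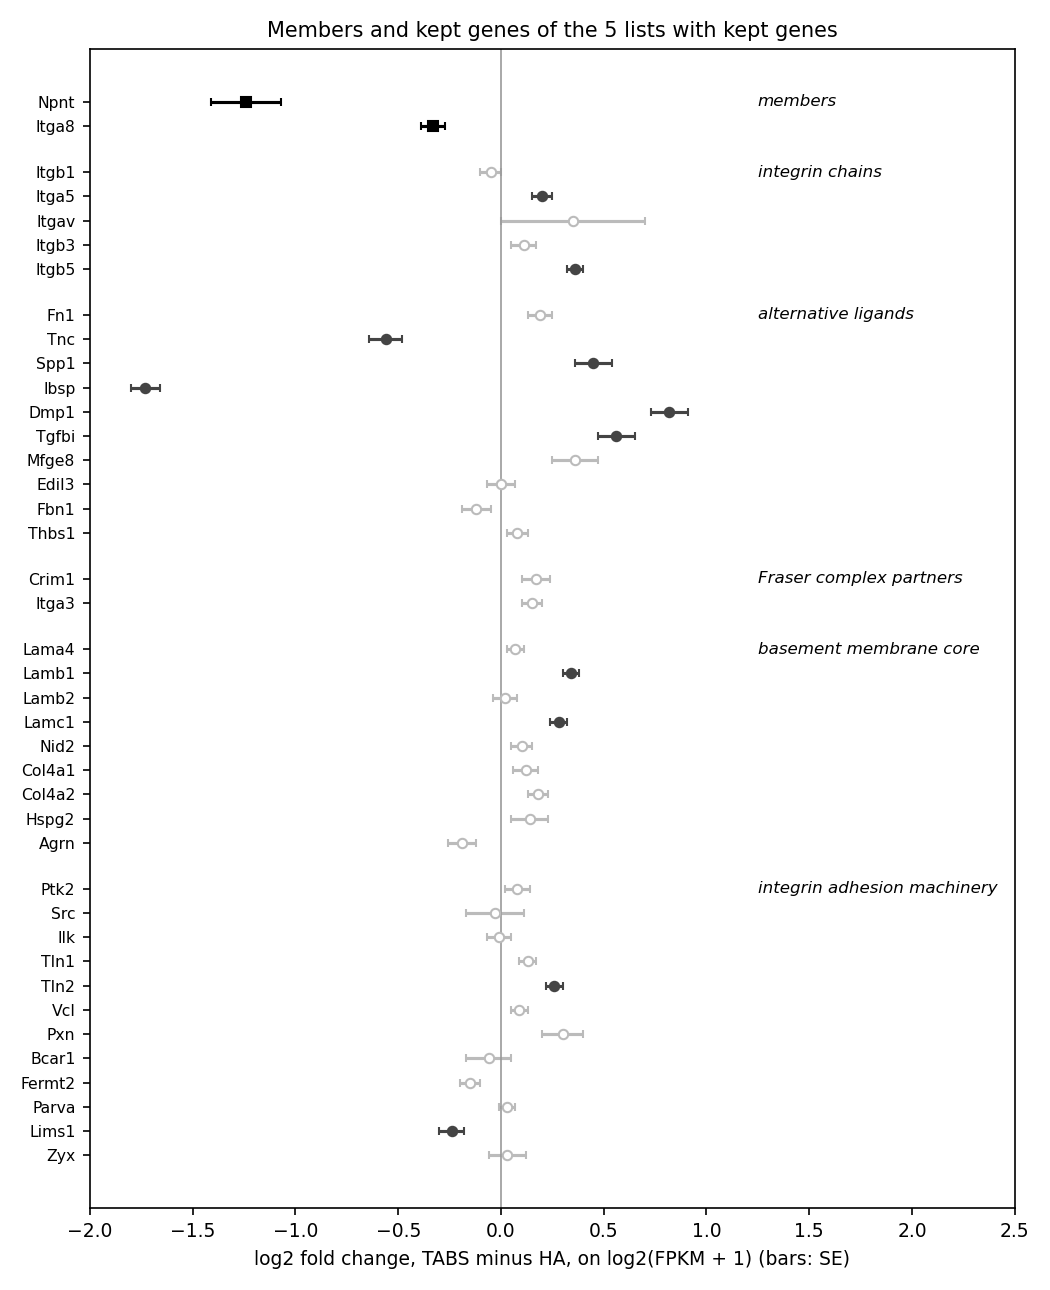
Difference of group means of log2(FPKM + 1), TABS minus HA (horizontal axis, bars are SE), of Npnt and Itga8 (squares, not tested) and of the kept genes of 5 lists (circles, filled where limma adjusted p was under 0.05). Npnt at -1.24 lies beside Ibsp at -1.73 at the low end, while Itgb5 at 0.36, Lamb1 at 0.34 and Lamc1 at 0.28 lie above 0.

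Partners of the Fraser complex ranged widely in level. Of 9 in the list, 2 passed the filter and neither passed the test. These were Itga3, a laminin-binding integrin chain (21.6 ± 0.718 FPKM in TABS and 19.3 ± 1.26 in HA, limma adjusted p = 0.11), and Crim1, a transmembrane protein of the same basement membranes (5.01 ± 0.528 and 4.32 ± 0.253 FPKM, limma adjusted p = 0.171). Grip2 and Vwa2 were listed at 0 in every library, and the paralog Frem3 was above 0 only in TABS 3, at 0.0072 FPKM. Col7a1, the anchoring fibril collagen, reached at most 0.175 FPKM, and Grip1, a scaffold protein that binds the complex inside the cell, averaged 0.0144 in TABS and 0.0128 in HA.

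Most core basement membrane genes, in contrast to the Fraser genes, were expressed. Of 13 in the list, 9 passed the filter, with 2 called higher, none called lower and 7 not called, and a median log2 fold change of 0.12. Lama1, Lama2, Lama5 and Nid1 were below the filter. Of these, Lama1 was as near to 0 as Fras1, with means of 0.00365 FPKM in TABS and 0.00301 in HA. The laminin chain gene Lamb1 stood at 23.7, 25.4, 24.0 and 24.2 FPKM in HA 1 to 4 and at 29.6, 31.7, 32.3 and 30.8 in TABS 1 to 4 (0.34 ± 0.04 SE, limma adjusted p = 0.00218). Lamc1, the laminin chain that assembles with it, stood at 27.3, 27.9, 27.1 and 26.9 FPKM in HA 1 to 4 and at 33.1, 34.0, 32.6 and 34.2 in TABS 1 to 4 (0.28 ± 0.04, limma adjusted p = 0.00231). Both laminin genes were higher in every TABS library than in any HA library, and both calls held in all 19 alternatives. That of Lamc1 held narrowly with the GC and length correction and the block (limma adjusted p = 0.0499). Nid2 (limma adjusted p = 0.28), Hspg2 (0.376) and Lamb2 (0.874), a nidogen, the perlecan gene and another laminin chain gene, did not pass.

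Genes that link integrins to actin inside the cell changed little. All 12 in the list passed the filter, with 1 called higher, 1 called lower and 10 not called, and a median log2 fold change of 0.03. Tln2, a talin gene, rose from 5.42 ± 0.117 to 6.71 ± 0.320 FPKM (0.26 ± 0.04 SE, limma adjusted p = 0.00893), a call that was lost with the block (0.065). Lims1, which encodes the adaptor PINCH1, fell from 37.5 ± 3.24 to 31.6 ± 1.11 FPKM (-0.24 ± 0.06, limma adjusted p = 0.0476). The call on Lims1 was lost without any single library (limma adjusted p up to 0.122), after rescaling to TPM (0.0756), with the block (0.141) and with no filter (0.107). Tln1 (limma adjusted p = 0.0962), Zyx (0.872) and Ilk (0.92) did not pass.

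The expression pattern over the 8 libraries was also compared between genes, by the root mean square difference of log2(FPKM + 1) after centring each gene on its own mean. Among 10218 candidates, the genes nearest to Npnt included Selenow, a small selenoprotein gene (0.248), Clec11a, which encodes the bone growth factor osteolectin (0.276), Pappa2, a protease of IGF-binding proteins (0.286), and the mitochondrial tRNA gene mt-Tt (0.290). Selenow stood at 374, 322, 296 and 282 FPKM in HA 1 to 4 and at 102, 108, 124 and 112 in TABS 1 to 4. Like Npnt, Selenow was highest in HA 1 and lowest of the HA libraries in HA 4. Within TABS the orders differed. Npnt was lowest in TABS 3 and highest in TABS 4, while Selenow was highest in TABS 3 and lowest in TABS 1. The FPKM of mt-Tt is uncertain, as a tRNA is a very short transcript.

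For Itga8 the nearest were Tmem65, a mitochondrial membrane protein gene (0.037), Pdp1, a phosphatase that activates pyruvate dehydrogenase (0.049), and Rrm1, a ribonucleotide reductase subunit (0.052). Tmem65 stood at 10.6, 11.1, 11.5 and 12.9 FPKM in HA 1 to 4 and at 8.58, 8.96, 8.75 and 9.09 in TABS 1 to 4. Itga8 and Tmem65 were both highest in HA 4 and, among TABS libraries, in TABS 4. The measure counts the difference between the scaffolds along with the spread within each, and it is a description over 8 libraries that carries no p.

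**Figure D3:**
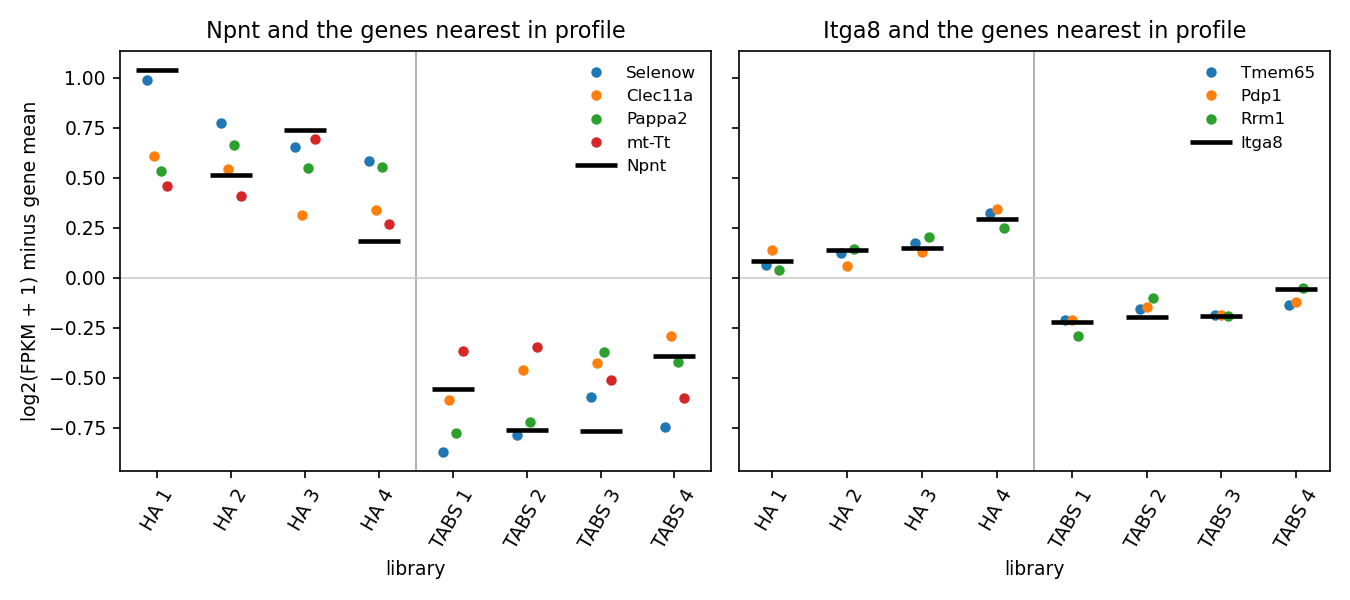
Log2(FPKM + 1) minus the gene's mean over 8 libraries (vertical axis) in each library (horizontal axis), with black bars for Npnt (left) or Itga8 (right) and coloured points for genes near in profile. The Npnt neighbours shown lie within a root mean square difference of 0.248 to 0.290, and those of Itga8 within 0.037 to 0.052.

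The tissue label and other cell types were checked with marker lists. All 9 osteoblast markers passed the filter, of which 2 rose (Spp1 and Dmp1) and 4 fell (Sp7, Col1a1, Alpl and Ibsp). Alpl passed the filter through the HA libraries alone, at 1.13 to 1.80 FPKM in HA and 0.373 to 0.518 in TABS. Macrophage, endothelial and adipocyte markers had no member above 0.346 FPKM, and Itgam and Kdr were listed at 0 throughout. For Itgam, 68.67% of exon bases are shared with Gm49368 on the same strand, so its 0 is uncertain. Of 5 epithelial markers, Epcam was listed at 0 and only Krt14 passed the filter, falling from 2.76 ± 0.574 to 1.32 ± 0.131 FPKM (limma adjusted p = 0.00445). The summed epithelial list ran from 1.21 to 1.63 FPKM in TABS and from 2.48 to 3.75 in HA, and most of it was Krt14. Cdh1 reached at most 0.179 FPKM, Krt5 0.0269 and Krt8 0.0243, and the groups overlapped in each. The part of this list in the lower Npnt was not tested. Of 4 chondrocyte markers, 2 passed the filter. Col2a1 rose from 4.32 ± 0.523 to 5.49 ± 0.212 FPKM (0.29 ± 0.07 SE, limma adjusted p = 0.0393), and Sox9, at 34.8 ± 1.60 in HA and 36.5 ± 1.01 in TABS, did not pass (limma adjusted p = 0.369). Itga8 is known from smooth muscle and myofibroblasts, and some markers of these contractile cells were also lower in TABS. Of 5 such markers, the 3 that passed the filter all fell (Acta2, Tagln and Myl9), and the summed level of the list ran from 161 to 190 FPKM in TABS and from 242 to 290 in HA, with Cnn1 and Myh11 near 0. Within the groups, Acta2 and Myl9 were lowest in HA 4, where Itga8 was highest of the HA libraries. Tagln was instead lowest in HA 3, at 6.91 FPKM, and stood at 7.34 in HA 4. Among TABS libraries, Acta2 and Tagln were highest in TABS 4, as was Itga8. Myl9 was highest in TABS 1, at 57.1 FPKM, with 57.0 in TABS 4. The part of these markers in the lower Itga8 was not tested. In the exons, 372 bases of Itga8 (5.05%) overlap E030013I19Rik on the opposite strand. That gene stood at 0.0495 to 0.0895 FPKM in TABS and 0.0940 to 0.163 in HA. The strand setting is not given, so its reads may be mixed with those of Itga8 where they overlap. No exon of Npnt overlapped another gene.

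**Figure D4:**
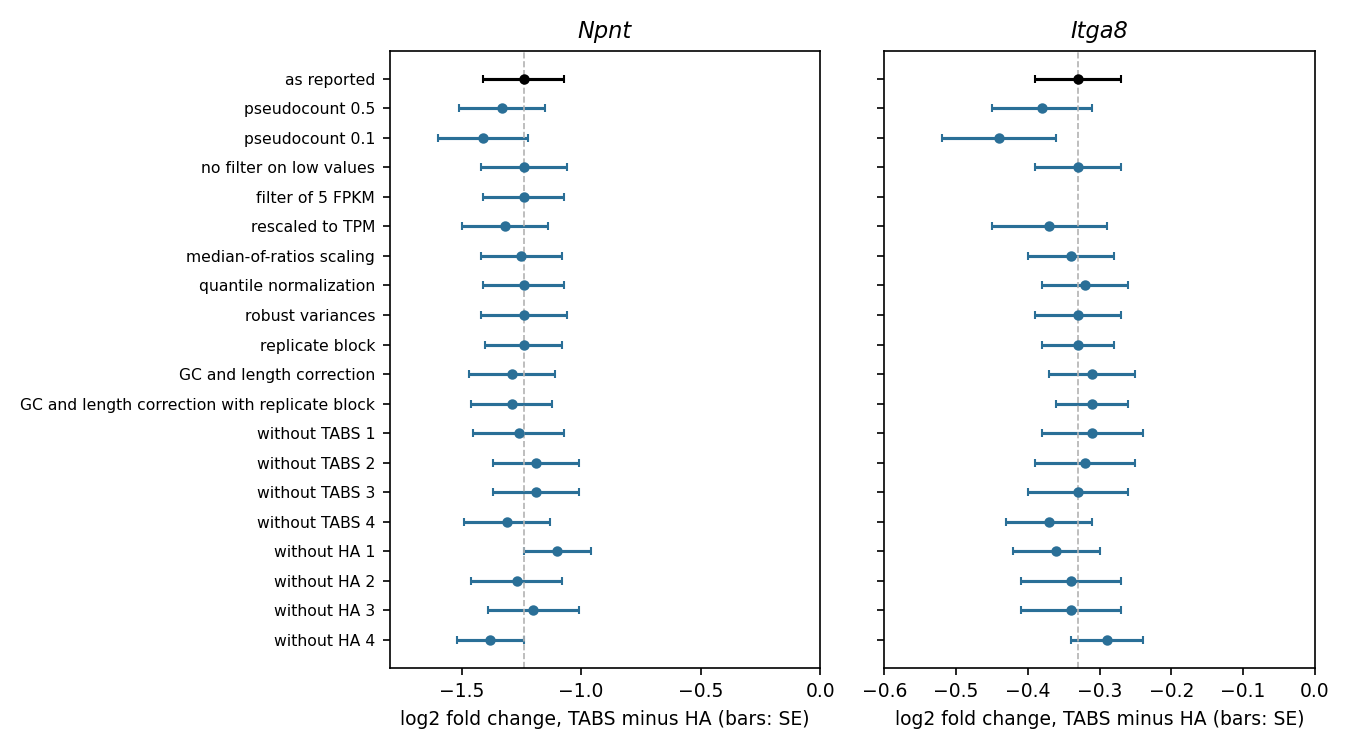
Log2 fold change, TABS minus HA (horizontal axis, bars are SE), of Npnt (left) and Itga8 (right) as reported and under each alternative way of processing (vertical axis). Npnt stayed between -1.41 and -1.10 and Itga8 between -0.44 and -0.29; Itga8 has no value with the filter of 5 FPKM, which removed it.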

How the data were processed

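The deposited table held 1 FPKM value per gene and library, computed by the authors before deposit. The submitters' processing notes name the build GRCm38 and the tools STAR, fastp and DESeq2. Not given in the sources used here: their versions and roles, the strand setting and the program behind the FPKM values. Libraries were matched to groups by the library names in the labels, where H stands for TABS and L for HA. No gene checks these labels, and a swap would turn every direction. FPKM summed to 304893 to 307263 per TABS library and 312629 to 317439 per HA library, and 11187 to 11357 genes reached 1 FPKM. Each of the 8 libraries correlated best with one of its own group, and no 2 were identical. Read totals were not in the table. The implied step of 1 fragment corresponded to 18.3 to 25.8 fragments per FPKM and kilobase, but only 15.9% to 23.1% of low values were whole multiples (within 0.02), so no count test was run.

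Of 55335 identifiers, 55154 matched GENCODE M21 (GRCm38), which gave symbols, positions, transcript lengths and overlaps. Genes with at least 1 FPKM in at least 4 libraries (11280) entered 1 fit on log2(FPKM + 1) by limma 3.58.1 (R 4.3.3), with trended variances, two-sided, without a block, at Benjamini-Hochberg adjusted p under 0.05 over all kept genes. Alternatives were other pseudocounts, filters and scalings, robust variances, a GC and length correction, the replicate number as a block, and leaving out each library with the same genes kept. The code was tested on simulated data. Same-numbered replicates showed no shared deviation (correlations from -0.10 to 0.10), though a pairing with a small effect would look the same. The 6 members, the lists and the tests were chosen with earlier results of these data known. Of each list, genes past the threshold were named, and up to 3 others by highest mean FPKM. Nearest genes were the 5 (Npnt) and 3 (Itga8) with the smallest root mean square difference, predicted gene models left out, and 1 of the 5 is not reported here. Frem3, Grip1, Grip2, Vwa2, Gdnf, Gfra1, Ret and markers were named after their values were seen. Exons overlap those of other genes by over 10% in Ilk (Taf10), Tagln (Gm48529), Spp1 (Gm42793), Itgam (Gm49368), Vcl (Ap3m1), Fbn1 (Gm9913) and Csf1r (Hmgxb3), so their values are uncertain.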

Additional observations from a re-analysis of the deposited data

Results flagged for a closer look

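In 84 groups of 4 libraries with any spread (members and kept list genes), 1 library stood apart from the other 3 in 6, by a gap to the nearest of the others above the critical share of the range in Dixon's test, where chance gives about 1 in 20. For Frem1, HA 3 was at 0.0034 FPKM and the other HA libraries at 0, the lowest level among these 6. A single value above 0 beside values of 0 is always flagged by this rule, so nothing is read from the flag on Frem1. For Itgav, HA 4 was at 12.6 FPKM and the other HA libraries at 4.58 to 4.80. Itgb5 reached 189.6 FPKM in TABS 1, while TABS 2 to 4 lay at 182 to 183, and Itga3 at 22.6 in TABS 4 and 21.1 to 21.3 in the others. Nid2 was at 60.4 FPKM in HA 2 and 53.9 to 54.8 in the other HA libraries. Pxn was at 6.57 FPKM in HA 4 and 9.32 to 9.71 in the other HA libraries. Pxn, which encodes the adhesion adaptor paxillin, did not pass the test (limma adjusted p = 0.122) but did without HA 4 (0.0496). Npnt and Itga8 had no library that stood apart by this measure. The causes were not tested.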

How the results depend on the processing

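Under 19 alternatives Npnt kept its direction, with log2 fold changes from -1.41 to -1.10, as did Itga8 in the 18 that kept it, from -0.44 to -0.29. The value of Itga8 moved most with a pseudocount of 0.1 (-0.44), since a larger pseudocount shrinks low genes. With 1 library left out, Npnt ran from -1.38 to -1.10 and Itga8 from -0.37 to -0.29. The direction could not turn in these fits, because the groups did not overlap for either gene.

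Of all genes, 833 were called, against 542 with no filter on low values, 230 with the replicate block and 331 with the GC and length correction and the block. With 1 library left out the count ran from 415 to 718. Rescaling to TPM made 79.3% of calls higher in TABS, against 60.7% as deposited, 54.4% with median-of-ratios scaling and 51.9% after the GC and length correction. Of the integrin chains, 1 was higher with no filter, with the replicate block and with the correction and the block, and 1 to 2 with 1 library left out. Of the alternative ligands, 1 was higher with the replicate block, and 2 to 3 with 1 library left out. Of the basement membrane genes, 1 was lower after the GC and length correction (Agrn, limma adjusted p = 0.0252), and 2 to 3 were higher with 1 library left out. Of the adhesion machinery, 2 were higher after rescaling to TPM, 0 with the replicate block, 0 with the correction and the block, and 1 to 2 with 1 library left out. In that list 0 were lower with no filter, after rescaling to TPM, with quantile normalization, with the replicate block, with the correction and the block, and with any 1 library left out. Fn1 passed with quantile normalization (limma adjusted p = 0.0226), and Mfge8 (0.0499) and Tln1 (0.0359) after rescaling to TPM. The causes were not tested. Same-numbered replicates showed no shared deviation (correlations from -0.10 to 0.10). Several libraries correlated better with another number, such as TABS 4 with HA 3 at 0.18. A pairing with a small effect would look the same, so whether calls lost with the block are weaker effects is not known.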

Other observations

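The Gdnf axis, which acts downstream of nephronectin and its integrin in the kidney, was below the filter in all 3 of its genes. Gdnf, the glial cell line-derived neurotrophic factor gene, stood at 0.227, 0.282, 0.233 and 0.349 FPKM in HA 1 to 4 and at 0.459, 0.432, 0.490 and 0.457 in TABS 1 to 4. Gfra1, its co-receptor gene, stood at 0.159, 0.202, 0.174 and 0.164 FPKM in HA 1 to 4 and at 0.482, 0.354, 0.302 and 0.378 in TABS 1 to 4. In both genes all TABS libraries lay above all HA libraries, the direction opposite to that of Npnt and Itga8. The same held for 10.8% of kept genes, and no such share was computed for genes below the filter, as these are. With no filter on low values both passed the test (log2 fold change 0.20 ± 0.04 SE, limma adjusted p = 0.0411 for Gdnf, and 0.23 ± 0.04, limma adjusted p = 0.0344 for Gfra1), in a fit that called 542 of 28201 genes. Ret, the signalling receptor gene, did not (HA 0.502 ± 0.0857 FPKM, TABS 0.535 ± 0.0619, SD, n = 4, limma adjusted p = 0.816). Exons of Gfra1 share 416 bases with the antisense gene Gm16277, and with the strand setting not given, their reads there may be mixed.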
